A study of Bos taurus with 8 samples.

Results

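The miR-15/16 family was followed in bovine plasma exosomes through 6 listed members, bta-miR-15a, bta-miR-15b, bta-miR-16a, bta-miR-16b, bta-miR-195 and bta-miR-497. The list does not hold every related miRNA on the array. The seed relatives miR-424-5p, detected on 4 arrays, and miR-503-5p, detected on 0, are given apart at the end. The members were chosen by name, as miRNAs that share the miR-15/16 seed, from the 744 bovine miRNAs on each array, and all 6 were detected on all 8 arrays, as were 143 miRNAs in total. The plasma came from 6 Japanese Shorthorn steers in the second or the third year of life that had been raised on grass. Of these, 3 were grazed on pasture and 3 were housed in a free-stall barn and fed cut grass, and blood was drawn at 0, 1, 2 and 4 mo, the first of these before the feeding differed. Exosomes, the small vesicles that cells release into blood, were collected by ultracentrifugation, and their RNA was pooled over the 3 steers of a group and month. Each pool was labelled with a single dye and measured on 1 array, so no value has a replicate error, the months come from the same animals, and the p-values below describe these pools and not other cattle.

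miRNAs pair with messenger RNAs mainly through the seed, bases 2 to 8 counted from the 5′ end, and members of a family that share a seed can repress the same messages. The miR-15/16 family is known for holding back the cell cycle through cyclins and for repressing the survival factor BCL2. In mammals its genes lie in pairs, each a miR-15 type and a miR-16 type gene made from 1 transcript. miR-16 is plentiful in blood cells, red cells among them, and is often used as a reference in plasma, whereas miR-195 and miR-497 are better known from muscle, vessel wall and other solid tissue. The blood-rich members miR-15a, miR-15b, miR-16a and miR-16b were therefore set against the miR-195/miR-497 pair.

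The stretch of each member that its longest probe binds is shown to make visible what is shared and what differs, since it sets which members the array can separate. Each stretch is the reverse complement of the probe, read 5′ to 3′ in DNA letters, with the bases of the seed that the probe reaches in capitals. The miR-15 type members come first.
bta-miR-15a: GCAGCAcataatggtttgt
bta-miR-15b: GCAGCAcatcatggtttaca
bta-miR-497: GCAGCAcactgtggtttgta
bta-miR-16a: AGCAcgtaaatattggtg
bta-miR-16b: CAGCAcgtaaatattggc
bta-miR-195: AGCAcagaaatattggca
The capitals end alike in all 6, and the lower-case part falls into a group with a tggttt run for miR-15a, miR-15b and miR-497 and a group with an aatattgg run for miR-16a, miR-16b and miR-195. Over the positions that both stretches cover, miR-16a and miR-16b were identical at 16 of 17 and shared an unbroken run of 16 bases, and miR-16b and miR-195 were identical at 15 of 17. miR-15a was identical to miR-15b at 16 of 19 positions and to miR-497 at 16 of 19. How much of the signal of one member came from RNA of another was not tested.

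The array design placed the longest probes on UMD_3.1 at chr12:19596362-19596379 for miR-15a and chr12:19596218-19596234 for miR-16a. Those of miR-15b and miR-16b were at chr1:107923401-107923419 and chr1:107923256-107923272. Those of miR-497 and miR-195 were at chr19:27441678-27441696 and chr19:27441362-27441378. These intervals, given as in the design, are 1 base shorter than the probes. The members of each pair thus lay close together, with 127 bases between the probes of miR-15a and miR-16a, 128 between those of miR-15b and miR-16b and 299 between those of miR-497 and miR-195. In the ARS-UCD2.0 gene list, used for neighbours only, MIR15B and MIR16B lie within the span of SMC4, a condensin subunit gene, MIR15A and MIR16A within that of a transcribed pseudogene, and MIR195 and MIR497 within that of a long non-coding RNA gene. Exon or intron was not analysed here.

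The sample labels and the study's supplementary expression table name the groups in opposite ways, which bears on every direction below. All detected miRNAs of each array labelled housed lay within 1% of a column that the table's legend calls grazing (226 of 226 at 0 mo), and all those of each array labelled grazing lay within 1% of a column of the other set (167 of 167 at 0 mo). That set is headed A in the table, a letter that the legend does not use, and is taken here as the housed set because it is the only other one. In any other column at most 12 did. Groups are named here by the sample labels and no array was moved, so a direction between labels turns round when it is read by that table. The arrays labelled housed 0, 1 and 4 mo were the brightest, with 90th percentiles of signal between 82.5 and 109, against 31.2 to 56.1 on the other 5. Between 149 and 226 miRNAs were detected per array. Position on the slide cannot be told apart from label and month. Of the marker lists, 4 of 4 red-cell, 5 of 5 platelet and endothelial and 4 of 5 leukocyte miRNAs were detected on at least 1 array. So were 7 of 9 vessel wall and stroma miRNAs, the 1 liver miRNA, 1 of 7 skeletal muscle miRNAs and 231 of all 744 miRNAs.

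All 6 members gave clear signals on all 8 arrays. The total signal, the background-subtracted brightness summed for a miRNA over its 40 spots, ran from 245 to 1184 for miR-15a and from 246 to 974 for miR-15b. It ran from 79.8 to 363 for miR-16b, from 34.1 to 184 for miR-16a, from 26.0 to 88.6 for miR-497 and from 20.3 to 88.5 for miR-195. The scanner software's error estimate, which covers the spots of 1 array and not differences between animals, was 7.39% to 12.4% of these signals, and 0 spots were saturated. Together the 6 members held between 1.26% (error estimate 0.0528) and 2.74% (0.113) of the detected signal of an array. miR-15a and miR-15b made up 73.3% to 79.4% of the signal of the 6, and the 4 blood-rich members 92.7% to 94.6%. These are shares of signal and not of molecules, since probes differ in how strongly they bind. By signal the order was miR-15a, miR-15b, miR-16b, miR-16a, miR-497 and miR-195 on 6 arrays, and at 1 mo of both labels miR-15b stood before miR-15a by less than the error estimate.

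To compare arrays, signals were expressed in units of the array's 90th percentile, so that a scaled signal of 1 equals that percentile. The miR-16 type members stood apart most clearly. For miR-16a the scaled signal was 1.69, 1.56, 1.45 and 1.95 at 0, 1, 2 and 4 mo for the label housed. For the label grazing the same months gave 0.994, 1.20, 0.930 and 0.996. All 4 values of miR-16a labelled grazing thus lay below all 4 labelled housed, and the nearest pair was 1.20 against 1.45. For miR-16b it was 3.33, 3.23, 3.28 and 4.08 labelled housed, and 2.31, 2.68, 2.25 and 2.33 labelled grazing. For miR-195 it was 0.812, 0.834, 0.768 and 0.896 labelled housed, and 0.516, 0.649, 0.451 and 0.625 labelled grazing. In neither did the labels overlap, and miR-195, the solid tissue member, lay on the same side as its blood-rich relatives.

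The miR-15 type members stood closer together. For miR-15a the scaled signal was 10.9, 8.99, 10.2 and 11.5 labelled housed, and 6.79, 7.86, 8.74 and 8.59 labelled grazing. For miR-15b it was 8.94, 9.06, 8.87 and 10.8 labelled housed, and 6.47, 8.13, 7.78 and 7.18 labelled grazing. The labels did not overlap in either, although for miR-15a the highest value labelled grazing, at 2 mo, and the lowest labelled housed, at 1 mo, differed by less than the error estimate of 1 value. For miR-497 it was 0.813, 0.969, 0.988 and 0.973 labelled housed, and 0.699, 0.832, 0.664 and 0.854 labelled grazing, so that miR-497 overlapped between the labels. In all, 5 of 6 members had label ranges that did not overlap, with labelled grazing lower, against 23 of all 143 tested miRNAs, or 16.1%.

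**Figure D1:**
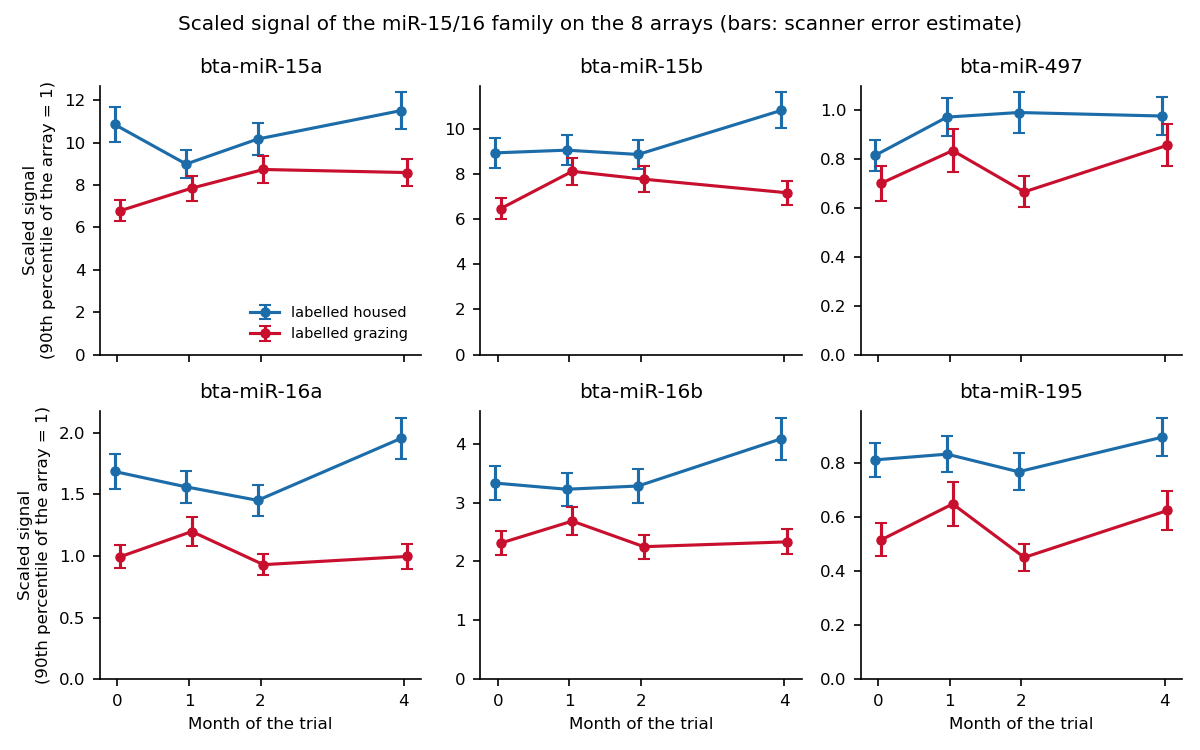
Scaled signal of the 6 members (vertical axes, in units of the array's 90th percentile, starting at 0) at each month, with 1 point per array, bars for the scanner's error estimate and lines joining the months of a label. The points labelled grazing lie below those labelled housed at every month, and miR-497 is the member whose label ranges overlap.

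The label difference was taken at each month and tested over the 4 months with limma, which left 3 residual degrees of freedom. miR-16a was lower on the arrays labelled grazing, with a log2 estimate of -0.69, a standard error of 0.14 and an adjusted p of 0.0279 from limma, so that the level labelled housed was 1.61 times that labelled grazing. miR-195 was lower as well (-0.58, standard error 0.13, limma adjusted p 0.0279), and so was miR-16b (-0.54, 0.14 and 0.0331). The miR-15 type members did not pass with these values. The estimate for miR-15a was -0.38 (standard error 0.14, limma adjusted p 0.0983), for miR-15b -0.35 (0.14 and 0.112) and for miR-497 -0.30 (0.13 and 0.139). Thus 3 of 6 members were called lower and 0 higher, with 5 below an unadjusted p of 0.05. Over all 143 miRNAs tested 14.7% were called lower, and 26.6% in either direction, 21 lower and 17 higher. The median estimate was -0.46 over the members and -0.08 over all tested miRNAs. The calls depended on which months were fitted. Without the arrays of 1 mo or of 4 mo 0 members were called. Without those of 0 mo 1 was called (miR-16a), and without those of 2 mo 2 were (miR-16a and miR-195). Of all 143 miRNAs 0 were called without 1 mo or 4 mo, 16 without 0 mo and 32 without 2 mo. The estimates of miR-16a, miR-16b and miR-195 were -0.79, -0.63 and -0.65 without 1 mo, and -0.60, -0.45 and -0.60 without 4 mo.

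**Figure D2:**
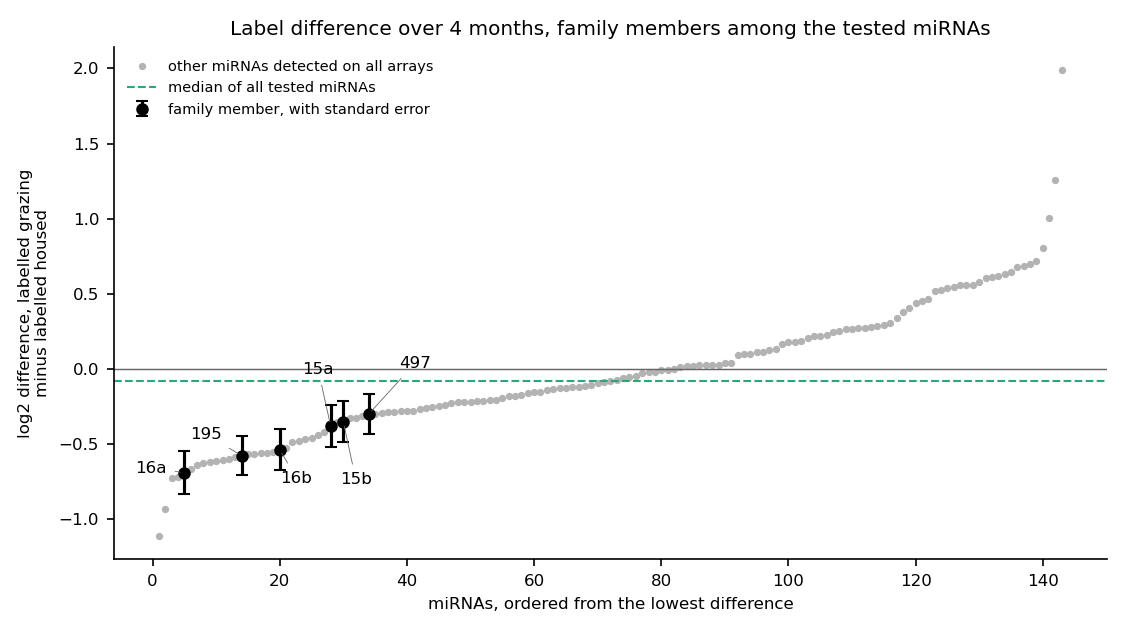
log2 difference between the labels over 4 months (vertical axis) for the 143 tested miRNAs in order of that difference (horizontal axis), with the members in black with their standard errors and the median of all as a dashed line. The members take places 5 (miR-16a), 14 (miR-195), 20 (miR-16b), 28 (miR-15a), 30 (miR-15b) and 34 (miR-497) from the lowest.

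The difference was already there at 0 mo, before the feeding differed. At that month it was -0.76 for miR-16a (error estimate 0.18), -0.68 for miR-15a (0.15), -0.66 for miR-195 (0.20), -0.53 for miR-16b (0.18), -0.47 for miR-15b (0.15) and -0.22 for miR-497 (0.19). For miR-15a this was the largest of the 4 months, and only miR-497 stayed within 2 error estimates. At 1 mo the differences lay between -0.38 for miR-16a and -0.16 for miR-15b. At 4 mo miR-16a differed by -0.97 (0.19) and miR-16b by -0.81 (0.18). Over members and months 24 of 24 differences were below 0, and 15 exceeded 2 error estimates. The 24 share arrays and steers, and the same counts were not made over all miRNAs. Of all 143 tested, 82 had an estimate over the 4 months below 0.

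The size of the difference depended on how the arrays were scaled, and the call with it. At 2 mo, when the array labelled grazing was the brighter one (90th percentile 56.1 against 50.7), the scaled differences were -0.77 for miR-195, -0.64 for miR-16a, -0.57 for miR-497, -0.54 for miR-16b, -0.22 for miR-15a and -0.19 for miR-15b. Without any scaling they were -0.62, -0.50, -0.43, -0.40, -0.07 and -0.04 in the same order. Scaling to let-7g, the reference miRNA of the study's PCR, moved the median of all tested miRNAs from -0.08 to 0.22, and scaling to the summed detected signal moved it to -0.29. With the 90th percentile let-7g itself had an estimate of -0.30 (standard error 0.12, limma adjusted p 0.120), and its label ranges did not overlap. Scaling to let-7g sets that difference to 0 and raises each member's estimate by its size. With let-7g, of the 142 other miRNAs, 2 were called lower and 32 higher, none of them a member, and with the summed signal 24 were called lower and 4 higher, miR-16a, miR-16b and miR-195 among the former. For the 75th percentile the calls were 20 lower and 4 higher around a median of -0.23, and without scaling 91 lower and 1 higher around -1.07. Under these scalings and all other alternatives the 6 members had estimates below 0 and below the median of all tested miRNAs, and the members' median minus that of all lay between -0.44 and -0.27. The estimate of miR-497 was -0.00 with let-7g, however. Which members were called changed with normexp, a background correction used with 50 added to each spot before log2. The added 50 compresses the log2 values of faint members most. How far this changed the calls was not tested. With normexp miR-15a (-0.67, limma adjusted p 0.0345), miR-15b (-0.64, 0.0348) and miR-16a (-0.41, 0.0345) were called lower, and miR-16b (-0.32, 0.0503) and miR-195 (-0.18, 0.129) were not.

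**Figure D3:**
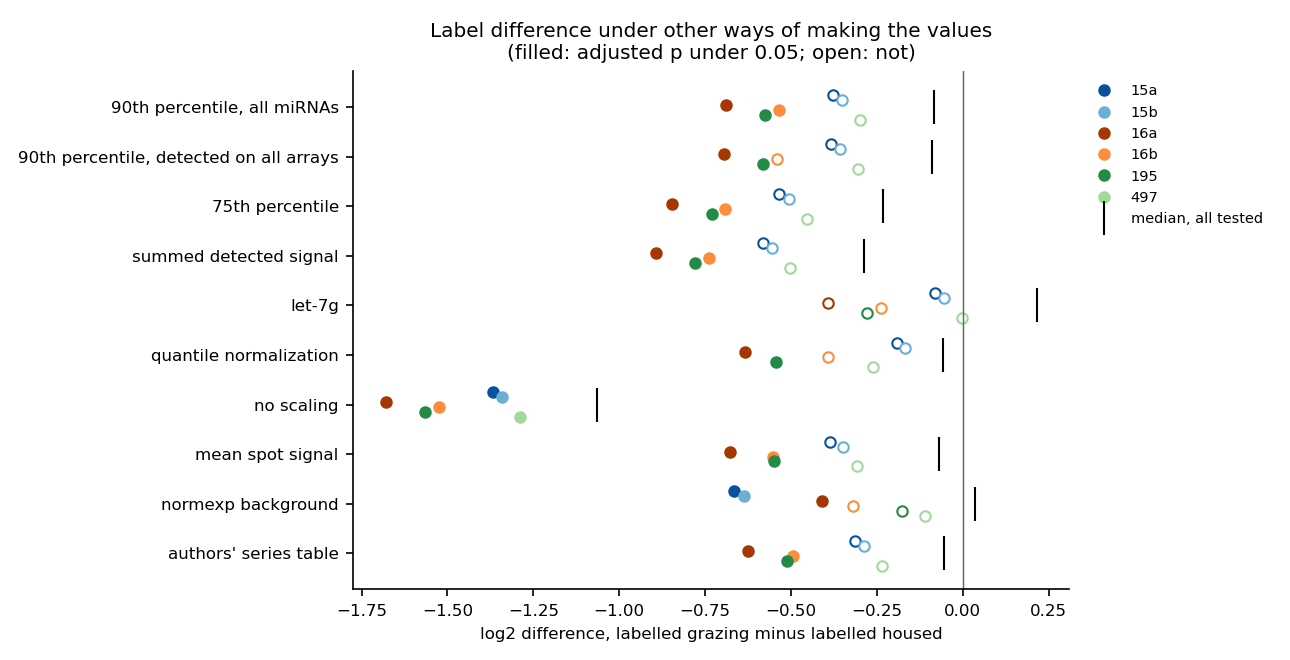
Estimate of the label difference over 4 months for each member (points, horizontal axis, log2) under each scaling or signal (vertical axis), filled where the limma adjusted p was under 0.05, with the median of all tested miRNAs as a black tick. The members keep to the left of the tick throughout, while the whole set moves with the scaling and normexp background correction puts miR-15a and miR-15b leftmost of the members.

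Some other measures differed between the labels as well. Of the red-cell list (miR-451, miR-144, miR-486 and miR-185) 2 of 4 tested members were called lower on the arrays labelled grazing, with a median estimate of -0.60. Its summed scaled signal was 27.4 to 49.1 labelled housed and 16.9 to 28.3 labelled grazing. Of the vessel wall and stroma list 3 of 5 tested were called lower (median -0.48, summed scaled signal 8.75 to 10.73 against 5.95 to 7.73), of the platelet and endothelium list 2 of 5 (median -0.08, 73.2 to 84.7 against 50.8 to 73.6) and of the leukocyte list 0 of 4 (median 0.22, 11.4 to 19.7 against 13.0 to 18.98), with 0 called higher in each. Over all 143 tested miRNAs 14.7% were called lower. Among these lists only vessel wall and stroma had label ranges of summed signal that did not overlap. The part of these cell types in the family's difference was not tested, and fewer vesicles of a cell type cannot be told apart from less of a miRNA per vesicle. GC content moved with the difference too. Over the 143 tested miRNAs, which are not independent, the Pearson r of the probe's GC content and the estimate was 0.52, and the members' longest probes had 38.9% to 50% GC. The 45 other tested miRNAs in that range had a median estimate of -0.15, and the 24 of them whose level also lay within that of the members had -0.21, against -0.46 for the members. The part of GC content was not tested.

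The probes of a member gave like differences. All 13 probes of the 6 members, 2 per member and 3 for miR-16b, were lower on the arrays labelled grazing at all 4 months. Probes of other miRNAs were not counted in this way. For miR-16a the mean difference was -0.68 on the probe of 17 bases and -0.69 on that of 18. For miR-15a it was -0.38 on both probes, of 18 and 19 bases. The shortest of these probes, of 16 bases for miR-16b, gave -0.90. It exceeded 3 times its error on only 4 arrays, however, and carried 1.41% to 2.11% of the signal of miR-16b.

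Against their own 0 mo array the members changed little in scaled signal. On the arrays labelled housed 0 of 18 changes exceeded 2 error estimates, and on those labelled grazing 3 of 18 did. These were miR-15a at 2 mo (0.36, error estimate 0.15) and at 4 mo (0.34, 0.15), and miR-15b at 1 mo (0.33, 0.15). Such counts were not made over all miRNAs. The mean change over 1, 2 and 4 mo was -0.09 for miR-15a labelled housed and 0.30 labelled grazing, and 0.09 and 0.25 for miR-15b. For miR-497 it was 0.26 and 0.16, and for miR-16a, miR-16b and miR-195 it lay between -0.04 and 0.14 under both labels. At every later month miR-15a labelled grazing still lay below every array labelled housed. These changes depend on the scaling. Without it, those at 2 mo lay between -1.32 (miR-16a) and -0.82 (miR-497) labelled housed. Labelled grazing they lay between 0.27 (miR-195) and 0.83 (miR-15a). Whether the change in scaled signal differed between labels was tested with limma on 2 residual degrees of freedom. The estimate for miR-15a was 0.40 with a standard error of 0.39 and an adjusted p of 0.961 from limma. For the other members it lay between -0.11 (miR-497) and 0.15 (miR-15b), with standard errors of 0.40 to 0.41. Thus 0 of 6 members were called, and 0 had an unadjusted p under 0.05, against 2 of 143 called (1.4%) and 9 unadjusted over all tested miRNAs. With standard errors near 0.4, a difference in change of the size of the label difference was not detectable.

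Ratios between members on the same array do not depend on a factor per array, and show whether parts of the family moved apart. The blood-rich members did not stand apart from the miR-195/miR-497 pair in a steady direction. On the log2 scale the mean of miR-15a, miR-15b, miR-16a and miR-16b exceeded that of miR-195 and miR-497 by 2.57, 2.32, 2.39 and 2.59 at 0, 1, 2 and 4 mo for the label housed. For the label grazing it did so by 2.40, 2.36, 2.66 and 2.24. The ranges overlapped, and labelled grazing minus labelled housed was -0.17, 0.04, 0.27 and -0.35, with error estimates of 0.16 to 0.17. The mean of the 4 months was -0.05 (error estimate 0.08, SD over months 0.27, n = 4 months). With 2 months on each side of 0, no direction was kept over the months. The difference at 4 mo (-0.35, error estimate 0.16) was the only one over 2 error estimates. A normexp background correction gave -0.36, but with its added 50 such a difference still depends on an array's brightness.

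Within each pair of neighbouring genes, the miR-15 type member stood higher against its miR-16 type mate on the arrays labelled grazing. The log2 ratio of miR-15a over miR-16a was 2.69, 2.53, 2.81 and 2.56 labelled housed, and 2.77, 2.71, 3.23 and 3.11 labelled grazing. Labelled grazing minus labelled housed was 0.08, 0.19, 0.42 and 0.55 at 0, 1, 2 and 4 mo, each with an error estimate of 0.24. Whether it grew over the months was not tested. For miR-15b over miR-16b the ratio was 1.42, 1.49, 1.44 and 1.41 labelled housed, and 1.49, 1.60, 1.79 and 1.62 labelled grazing. For miR-497 over miR-195 it was 0.00, 0.22, 0.36 and 0.12 labelled housed, and 0.44, 0.36, 0.56 and 0.45 labelled grazing. The ranges of the labels overlapped in each pair. The mean difference over months was 0.31 (error estimate 0.12) for miR-15a over miR-16a, 0.18 (0.12) for miR-15b over miR-16b and 0.28 (0.14) for miR-497 over miR-195. Of 12 differences over pairs and months 12 were above 0 and 1 exceeded 2 error estimates, that of miR-15a over miR-16a at 4 mo. The direction was not kept in all pairs with normexp, whose values are not free of the array's brightness. With normexp the means were -0.26, -0.32 and 0.07.

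**Figure D4:**
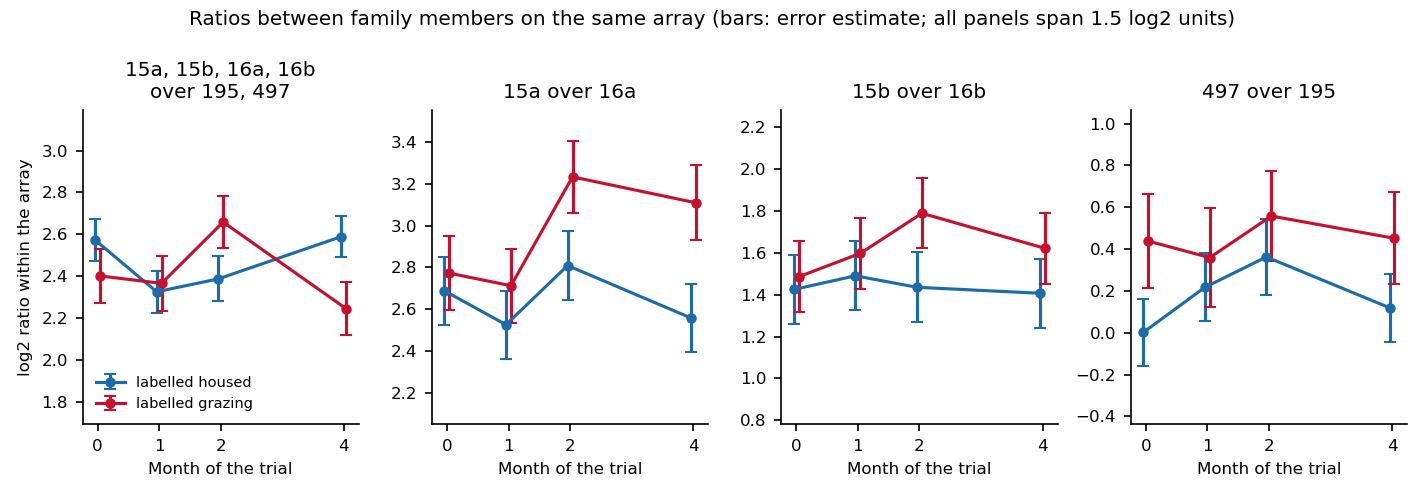
log2 ratios between members of the same array (vertical axes, each spanning the same number of log2 units) at each month, for the blood-rich members over miR-195 and miR-497 and for the 3 pairs of neighbouring genes, with bars for the error estimate. The labels cross in the first panel, and in the others the points labelled grazing lie above those labelled housed at each month.

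Over the 8 arrays the scaled log2 values of the members followed each other to different degrees, from a Pearson r of 0.60 between miR-15a and miR-497 to 0.99 between miR-16a and miR-16b. All such r describe 8 points that share their pools, their scaling and the gap between labels. Among the 137 other miRNAs detected on all arrays, miR-16b was followed most closely by miR-101 (0.99), let-7g (0.94) and miR-106b (0.94), and miR-16a by miR-101 (0.98), miR-193a-3p (0.95) and miR-10a (0.94). miR-15b was nearest to miR-101 (0.95), miR-10a (0.94) and let-7f (0.92). miR-15a had the least close companions, miR-107 (0.86), miR-27b (0.81) and miR-101 (0.80). The miR-195/miR-497 pair had other companions, with miR-126-3p, an endothelial miRNA, miR-139 and miR-125b nearest to miR-195 (0.99, 0.98 and 0.98) and let-7b, let-7c and miR-99a-5p nearest to miR-497 (0.98, 0.97 and 0.96). The median r over all candidates lay between -0.03 and 0.30 for the 6 members.

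Of the 4 seed relatives looked at besides the 6 members, 2 could be tested. miR-424-5p was detected on the 4 arrays labelled housed, with signals of 11.2, 13.1, 5.41 and 11.9 and error estimates of 2.05 to 2.35. On the 4 arrays labelled grazing it was not detected, with signals of 1.84 to 3.27. No test was made, since a miRNA near the detection limit has only a bound on those arrays. miR-503-5p was detected on 0 arrays. miR-103 and miR-107, which are linked to insulin signalling and have a related seed, were tested, with label differences of -0.13 (limma adjusted p 0.559) and -0.32 (0.120).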

How the data were processed

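Plasma exosomal RNA pools were hybridized by the authors to custom Agilent SurePrint G3 arrays and read with Feature Extraction 10.7.3.1. The deposited array files hold intensity values that were background-subtracted but not normalized between arrays, with a detection flag and an error estimate. The deposited series table holds a ratio of signal to a single factor for each array, on a linear scale without centring. Of its 743 entries 730 matched an array name, and its column medians were 0.000664, 0.000926, 0.00149 and 0.000915 labelled housed and 0.00187, 0.00257, 0.00135 and 0.00241 labelled grazing. Over which values the authors took their 90 percentile is unknown.

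Total signals were divided by the array's 90th percentile over all 744 miRNAs, after the study's methods. Undetected values, and 104 of 1398 detected values, were set to a floor of 0.114, and log2 was taken. limma 3.58.1 in R 4.3.3 was run on the 143 miRNAs with a detection flag on every array, in a model of month and label, or with a further term for the label's later months, and Benjamini-Hochberg adjustment at 0.05. A miRNA with the same value on every array under an alternative (let-7g when it sets the scale) was left out of that fit. Both fits were tested on simulated data with planted differences larger than any estimated for a member. How the fits perform at the size of the members' differences was thus not tested. Errors of ratios were propagated from the scanner's error estimates. Python 3.11.15, numpy 2.4.6 and pandas 2.3.3 were used elsewhere. The number of arrays limits the precision.

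The miRNAs named are the 6 members, 4 seed relatives, the 3 miRNAs most alike to each member, the lists of blood-cell, vessel, muscle and liver miRNAs (the 1 liver miRNA was not tested, being undetected on some arrays) and let-7g. Members and lists were chosen with earlier results of these data known. Alternatives were other scalings, the mean processed spot signal, normexp (offset 50), the series table, looser filters, an intensity trend in limma, the longest probe alone and leaving out each month.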

Additional observations from a re-analysis of the deposited data

How the results depend on the processing

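All 6 members kept a label difference below 0 under all 16 alternatives, and 3 were called with the values reported. With normexp 3 were called too, but they were miR-15a, miR-15b and miR-16a in place of miR-16a, miR-16b and miR-195. The number of members called lower became 0 with let-7g scaling, 0 without a filter (198 miRNAs tested, those at the floor on every array left out) and 6 without scaling, and lay between 0 and 2 with a month left out (0 without 1 mo or 4 mo, 1 without 0 mo). Of all tested miRNAs 38 were called, against 24 with the 75th percentile, 92 without scaling, 7 without a filter and 0 to 32 with a month left out. For the change from 0 mo, 0 members were called under any of 15 alternatives. Of all miRNAs 2 were called, against 10 without a filter and 2 with an intensity trend, and 0 under each other alternative. The members' differences in change, none of them called, turned sign in 21 of 90 cases. For miR-15a these were -0.034 with the 90th percentile of miRNAs detected on all arrays and -0.16 with quantile normalization. For miR-15b they were -0.28 and -0.11 with these, and -0.17 with the summed signal. For miR-16a they were -0.34, -0.028 and -0.23, and -0.055 with the 75th percentile. For miR-195 they were -0.33, -0.088, -0.22 and -0.046, and -0.084 with normexp. For miR-16b they were 0.15 with quantile normalization, 0.10 with let-7g and 0.56 without scaling, and for miR-497 0.47 without scaling. With a month left out they ranged from -0.046 to 0.25 for miR-16a, from -0.15 to 0.12 for miR-16b and from -0.18 to 0.015 for miR-497. The blood-rich minus miR-195/miR-497 difference of -0.05 became 0.056 with quantile normalization and -0.36 with normexp, and ranged from -0.16 to 0.047 with a month left out. The miR-15a over miR-16a difference of 0.31 became 0.44 with quantile normalization and -0.26 with normexp, that of miR-15b over miR-16b became -0.32 and that of miR-497 over miR-195 became 0.069 with normexp. The split by sequence type, whose alternatives were chosen after seeing the data, gave 0.26 and turned to -0.17 with normexp. The cause was not tested. The order of the members on each array was the same on all 8 arrays under the other signals and the series table. Both fits set the labels against each other within months, and no further replicate block was possible, since each group and month has 1 array. Faint members limit the ratios, since the signal of miR-195 went down to 20.3 and that of miR-497 to 26.0.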

Other observations

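The member estimates of the label difference followed the type of the sequence and not the blood-rich and miR-195/miR-497 grouping. miR-497 lay with miR-15a and miR-15b, whose bound stretches share the tggttt run, and miR-195 lay with miR-16a and miR-16b. The nearest estimates across these groups, -0.54 for miR-16b and -0.38 for miR-15a, each had a standard error of 0.14. With normexp the order was that of the blood-rich grouping instead. The estimates were then -0.67 for miR-15a, -0.64 for miR-15b, -0.41 for miR-16a, -0.32 for miR-16b, -0.18 for miR-195 and -0.11 for miR-497. The split by sequence type was chosen after the values were seen, so it has no test. A gap between the labels was thus favoured in advance and is no support for it. How often other splits give such a gap was not counted. On the log2 scale the mean of miR-15a, miR-15b and miR-497 exceeded that of miR-16a, miR-16b and miR-195 by 1.36 to 1.54 on the arrays labelled housed and by 1.56 to 1.86 on those labelled grazing, and these ranges did not overlap. The difference between labels was 0.19, 0.15, 0.32 and 0.37 at 0, 1, 2 and 4 mo, with a mean of 0.26 (error estimate 0.07). It was 0.26 with the longest probes alone, 0.32 with quantile normalization and -0.17 with normexp correction, which turned its direction, and it lay between 0.22 and 0.29 with a month left out. Probes of the first group were longer (18 to 20 bases) and reached more of the seed than those of the second (16 to 18 bases). Their part in the split was not tested.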
